A study of Homo sapiens with 4 samples.

Results

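Hypoxic glycolytic neutrophils are mouse neutrophils of the tumour bed whose transcripts carry a large share of Hilpda, Hk2 and Ero1l. They were found among mouse barcodes with at least 1000 gene UMIs (unique molecular identifiers, each one counted transcript), at least 300 genes, at least 90% of gene UMIs on mouse genes and at most 20% mitochondrial UMIs. A barcode counted as a neutrophil when S100a8 and S100a9, the subunits of calprotectin, made up at least 5% of its mouse UMIs and no UMI of Il23a was present. The members are the top 10% of these neutrophils over both libraries by the share of mouse UMIs on Hilpda, Hk2 and Ero1l. The rule gave 745 cells in the aged library and 950 in the young library, 1695 of 16944 neutrophils, and both libraries together held 26194 mouse barcodes that passed the filters and 34722 barcodes of any species. The remaining 7687 aged and 7562 young neutrophils are the cells they are set beside.

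The study asked whether the age of breast tissue matrix changes tumour formation. Cells of MCF10DCIS.com, a human breast line that forms lesions resembling ductal carcinoma in situ, were grown for 12 days on decellularised mammary matrix (dECM) from mice either aged (from 18 months) or young (2 to 3 months), and each scaffold was then placed in a fat pad of a Rag1-/- host, a mouse without mature T or B lymphocytes. Tumour and adjacent stroma were taken 4 weeks after implantation, dead cells were removed, and 3 tumour samples went to single-cell sequencing, with aged and young scaffolds carried on opposite sides of the same host. Each matrix age gave 1 gene expression library of pooled, antibody-hashed cells, so no value below has a replicate, no test was run, and no p-value is given.

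Neutrophils are short-lived phagocytes that leave the bone marrow with granules already filled, and in tumours they can live longer and take on states that differ from those in blood. Cells short of oxygen stop hydroxylating and degrading the transcription factor HIF-1 alpha, which then drives genes for glucose uptake, glycolysis, lactate release, blood vessel growth and mitochondrial turnover. Neutrophils rely on glycolysis even when oxygen is present, and PD-L1 is among the hypoxia-driven genes of tumour myeloid cells.

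Depth and mitochondrial share of both sets lay close together, whereas high doublet scores were rarer in hypoxic neutrophils. Hypoxic neutrophils held a median of 2044 mouse UMIs in the aged and 2169 in the young library, against 2148 and 2221.5 in the remaining neutrophils, and a median of 662 and 672.5 mouse genes, against 672 and 670. Their median mitochondrial share was 0.317% and 0.333%, against 0.320% and 0.391%, and each set held a median of 64 to 68 human UMIs per cell. The share of cells with a doublet score over 0.25 was 4.83% and 5.79% in hypoxic neutrophils, against 10.5% and 10.3%; cells with such scores were kept. Of 190 barcodes present in both libraries, 19 were neutrophils in both, none was a hypoxic neutrophil in both, and 6 hypoxic neutrophils had a barcode that also occurred in the other library. One hashing tag dominated each library in mouse cells of every set, so the tags did not divide the neutrophils by animal. The surface antibody for PD-L1 gave 1 count over the 745 aged and 0 over the 950 young hypoxic neutrophils, too few to read the protein.

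The choosing genes are given as a description, since they defined the cells. Hilpda, which encodes a lipid droplet protein that restrains triglyceride breakdown, had 6098 CPM (UMIs of the gene after scaling each set's mouse gene UMIs to one fixed total) in hypoxic and 834 in remaining neutrophils of the aged library, and 6311 and 981 CPM in the young library. Hk2, the hexokinase that traps glucose in the cell, had 759 and 174 CPM in aged, and 823 and 215 CPM in young. Ero1l, the oxidase that drives disulphide formation in the endoplasmic reticulum, had 3240 and 739 CPM in aged, and 3215 and 840 CPM in young. A hypoxic neutrophil carried a median of 20 UMIs of these genes in the aged library and 22 in the young library, against 2 and 3 in a remaining neutrophil, and 438 aged and 625 young members had UMIs of all 3 genes. Only 18 members in each library rested on a single gene. The boundary cut through a continuous distribution: the threshold lay at 0.705% of mouse UMIs, the 20 cells just inside it held 0.705% to 0.708%, and the 20 just outside held 0.700% to 0.705%. No UMI of the 3 genes was seen in 3634 neutrophils, and the median over all neutrophils was 0.154%.

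Each choosing gene was also high in cells chosen by the other pair, which did not use it. The 3 genes were set together with earlier results of these data known. These values therefore describe how the genes go together and are no independent check. Hilpda reached 3211 CPM in the top 10% by Hk2 and Ero1l, against 1074 CPM in the other aged neutrophils, a ratio of 2.99 (95% interval 2.91 to 3.08), and 3611 against 1312 CPM in the young library, a ratio of 2.75 (2.69 to 2.82). Hk2 was 2.65-fold (2.47 to 2.84) and 2.36-fold (2.22 to 2.50) higher in the cells chosen without it, and Ero1l 2.57-fold (2.48 to 2.67) and 2.43-fold (2.36 to 2.50). Leaving out Hilpda kept 53.7% of the chosen aged cells and 57.9% of the young ones within the hypoxic neutrophils, whereas leaving out Hk2 kept 89.0% and 90.4%. All such intervals are exact; they reflect the number of UMIs or cells counted and nothing of how animals vary.

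Cd274 (ENSMUSG00000016496), the gene of PD-L1, was named as a marker of these cells but did not choose them. It had 655 CPM in hypoxic and 217 CPM in remaining aged neutrophils, a ratio of 3.01 (2.82 to 3.22), and 661 and 243 CPM in young ones, a ratio of 2.72 (2.57 to 2.87). With every cell thinned to 1000 mouse UMIs, 38.1% of aged and 38.0% of young hypoxic neutrophils had a Cd274 UMI, against 14.99% and 16.4% of the remaining neutrophils, and unthinned shares were 54.8% and 56.5%, against 25.5% and 29.5%. Fibroblast-like cells of the same libraries had median depths of 21617 and 24774 UMIs before thinning. They showed a Cd274 UMI in 1.48% and 1.09% at the same thinned depth, and in 10.6% and 13.2% unthinned. Such deep cells keep less of any stray RNA after thinning than shallow neutrophils do. Their shares, here and for other genes below, therefore do not set the background in neutrophils. Thinning left out 10 and 7 hypoxic and 69 and 59 remaining neutrophils as too shallow. Other mouse cells, all types together, had 64.6 and 67.7 CPM. Cd274 was named as a marker with earlier results of these data known, so its level is a description and not a check of the choice. The defining neutrophil genes other than S100a8 and S100a9 summed to 10814 and 10235 CPM in hypoxic neutrophils, lower than the 18843 and 17482 CPM of the remaining ones and well above the 1774 and 1863 CPM of other mouse cells.

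Cd274 climbed with the choosing share on both sides of the threshold rather than at it. Neutrophils without any UMI of the choosing genes had 65.8 CPM of Cd274 in the aged and 73.6 CPM in the young library. Among the remaining cells with such a UMI, split into 5 steps, the step closest to the threshold had 434 and 516 CPM. Among hypoxic neutrophils, split into 3 steps, the lowest had 561 and 580 CPM and the highest 734 and 771 CPM. Bnip3, which encodes a receptor for mitochondrial autophagy, followed the same order, with 147 and 173 CPM in cells without the choosing UMIs and 1530.5 and 1671 CPM in the highest step. Ldha, the lactate dehydrogenase subunit that turns pyruvate into lactate, had 576 and 606 CPM at the low end and 3348 and 3396 CPM at the high end. Hif1a itself, with 606 and 596 CPM at the low end and 692 and 705 CPM at the high end, differed far less.

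**Figure D1:**
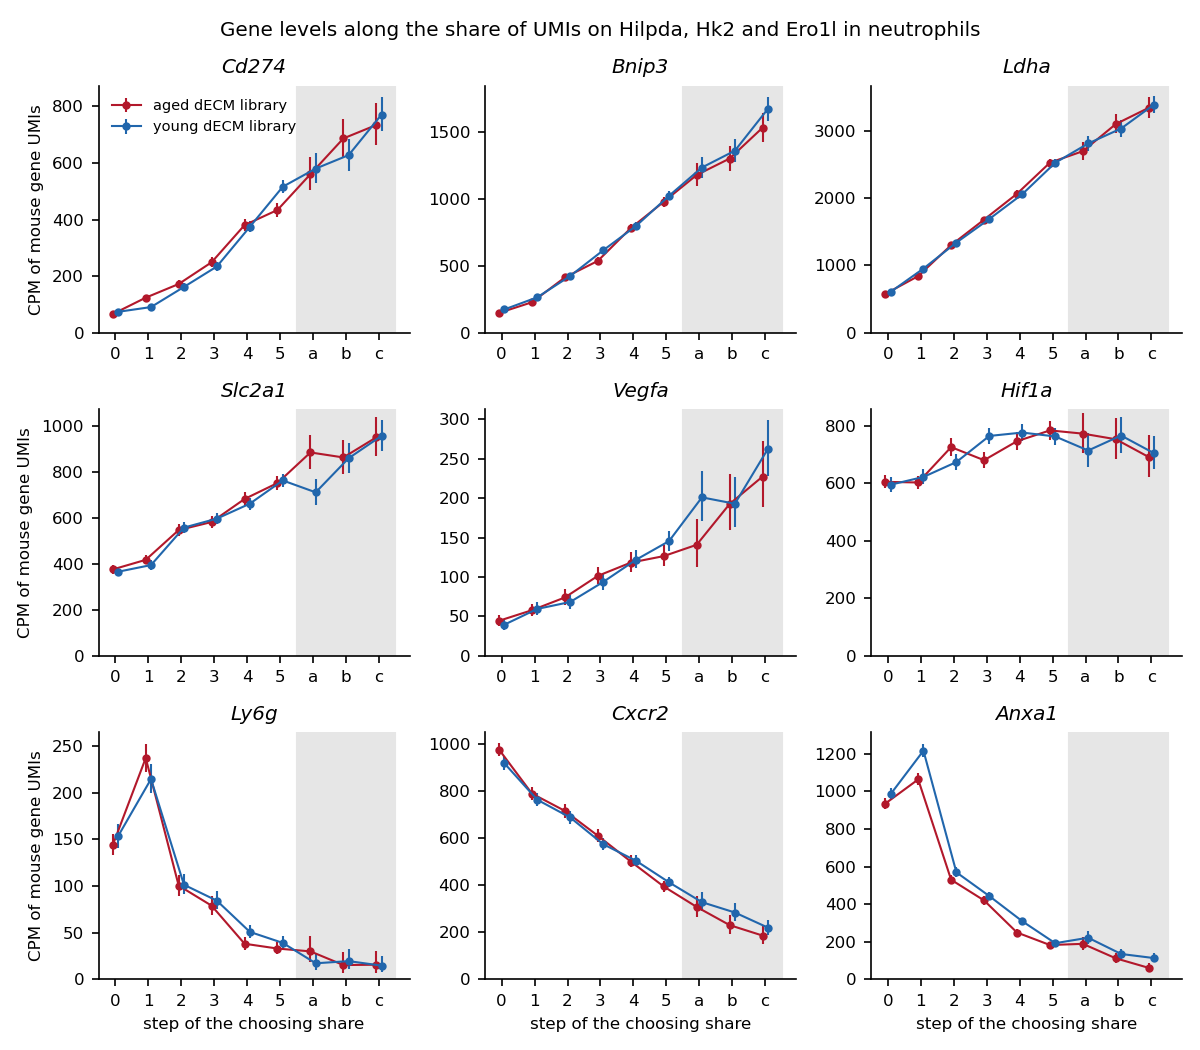
CPM of mouse gene UMIs (y axis) of 9 genes along the share of UMIs on Hilpda, Hk2 and Ero1l, with neutrophils without such a UMI at 0, the other remaining neutrophils in steps 1 to 5 and the hypoxic neutrophils in steps a to c on a grey ground; aged in red, young in blue, bars exact 95% counting intervals. Cd274, Bnip3, Ldha, Slc2a1 and Vegfa climb to the right in both libraries, Cxcr2 goes down along all steps, and Hif1a stays between 596 and 785 CPM.

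A gene was measured where the higher set reached 50 CPM and both sets together 100 UMIs in each library. This held for 1947 genes, and the 6 genes of the rule were not counted. Of the measured genes, 332 (17.1%) were at least 1.5-fold higher in hypoxic than in remaining neutrophils in both libraries and 286 (14.7%) were at least 1.5-fold lower, 107 and 101 of them by at least 2-fold, and none passed in opposite directions. The median log2 ratio over the measured genes was 0.06 in the aged and 0.05 in the young library. S100a8 and S100a9 took a median of 10.5% and 11.7% of UMIs in hypoxic neutrophils, against 16.0% and 17.4%, and the split changed with the scaling. With both genes left out of the total, 285 genes were higher and 386 lower, with median ratios of -0.05 and -0.06. Median-of-ratios scaling gave 434 higher and 227 lower, with medians of 0.19 and 0.17. Ratios were calculated over the same cells that the rule sorted, so they describe the cells and were not tested.

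**Figure D2:**
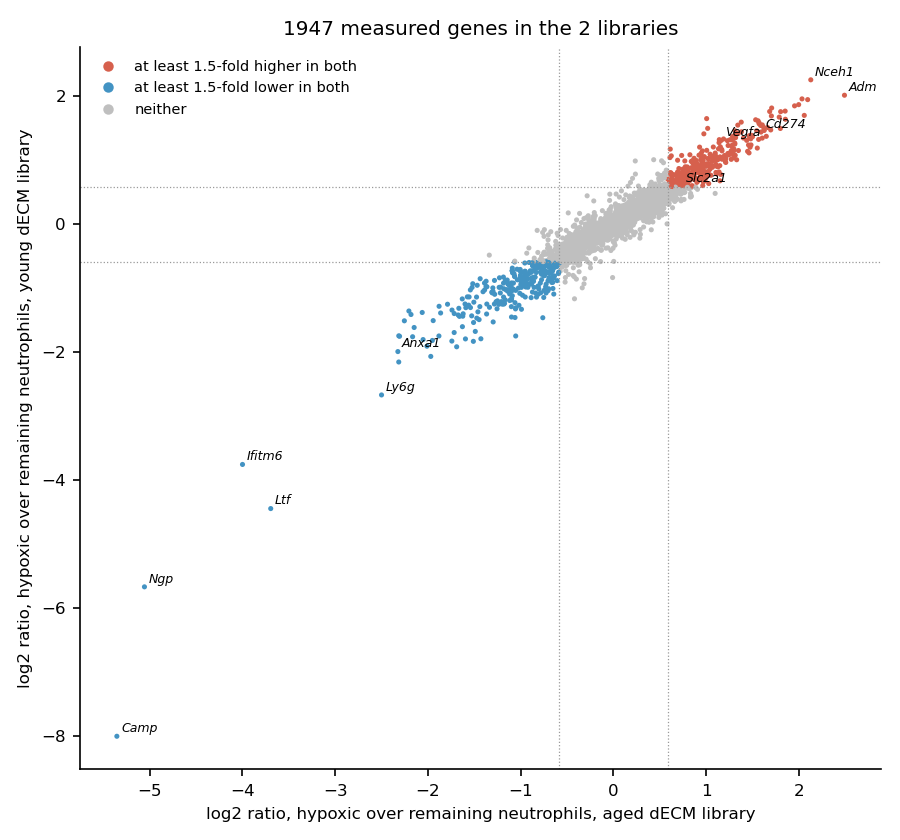
Log2 ratio of hypoxic over remaining neutrophils in the aged (x axis) and the young library (y axis) for 1947 measured genes, with dotted lines at the 1.5-fold minimum and genes past it in both libraries in red (332 higher) and blue (286 lower). Points lie along the diagonal, Adm and Nceh1 stand at the upper end, and Camp, Ngp, Ltf and Ifitm6 stand far down on the left.

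The hypoxia response list had the highest median log2 ratio of the 14 gene lists. Of its 28 genes 20 were measured, 17 were higher and none lower, against 17.1% and 14.7% of all measured genes. The median log2 ratio was 1.22 in each library, against 0.06 and 0.05 over all measured genes. Among the oxygen sensors that mark HIF for degradation, Egln1 had 234 and 76.8 CPM in aged hypoxic and remaining neutrophils, 3.04-fold (2.72 to 3.40), and 263 and 89.5 CPM in young, 2.93-fold (2.68 to 3.21). Egln3 had 289 and 142 CPM in aged, 2.03-fold, and 328 and 161 CPM in young, 2.04-fold. Among secreted factors, Adm, which encodes the vessel-dilating peptide adrenomedullin, had 67.3 and 12.0 CPM in aged, 5.63-fold (4.48 to 7.04), and 59.6 and 14.7 CPM in young, 4.05-fold (3.30 to 4.94). Adm was not restricted to these cells, since other mouse cells had 126 and 87.6 CPM. Vegfa, the main endothelial growth factor, had 184 and 82.3 CPM in aged, 2.24-fold (1.98 to 2.52), and 219 and 88.5 CPM in young, 2.48-fold (2.25 to 2.73), and other mouse cells had 173 and 175 CPM. The stress-responsive gene Ndrg1 had 299 and 86.5 CPM in aged, and 298 and 93.1 CPM in young. Bnip3 had 1324 and 468 CPM in aged, 2.83-fold (2.70 to 2.96), and 1423 and 551 CPM in young, 2.58-fold (2.48 to 2.68).

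The 3 measured genes of the list that did not pass were Hif1a, Ddit4 and Ier3. Hif1a had 743 and 680 CPM in hypoxic and remaining neutrophils of the aged library, a ratio of 1.09, and 728 and 700 CPM in the young library, a ratio of 1.04. Ddit4, an inhibitor of mTORC1, stood at 1.47-fold and 1.41-fold, and the early response gene Ier3 at 1.46-fold and 1.65-fold. HIF-1 alpha is controlled mainly at the level of the protein, which was not measured.

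Glycolysis and glucose uptake genes followed, with 22 of 27 measured and median log2 ratios of 0.82 in each library. Of the 22, 15 were higher and 1 lower, against 17.1% and 14.7% of all measured genes. Slc2a1, the glucose transporter GLUT1, had 897 and 537 CPM in hypoxic and remaining aged neutrophils, 1.67-fold (1.58 to 1.76), and 842 and 557 CPM in young, 1.51-fold (1.44 to 1.59). Its smaller log2 ratio, 0.60, lay just above the minimum of 0.58. It fell below the minimum under 8 of 22 other settings, and was 0.50 with S100a8 and S100a9 out of the total. Gpi1, which converts the glucose phosphate made by hexokinase to fructose phosphate, was 2.22-fold and 2.08-fold higher. Ldha had 3031 and 1392 CPM in aged, 2.18-fold (2.11 to 2.24), and 3086 and 1535 CPM in young, 2.01-fold (1.96 to 2.06). Pdk1, the kinase that closes the entry of pyruvate into mitochondria, was too low to be measured by the rule, at 30.8 and 27.9 CPM in aged and 41.5 and 24.7 CPM in young.

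Glycogen genes did not go one way. Gbe1, the glycogen branching enzyme, had 79.2 and 19.3 CPM in aged, 4.10-fold (3.35 to 4.98), and 102 and 26.2 CPM in young, 3.89-fold (3.34 to 4.53), and the phosphoglucomutase gene Pgm1 was 2.93-fold and 2.28-fold higher. Pygl, the glycogen phosphorylase that releases glucose units, was the only gene of the list that passed downward, with 112 and 234 CPM in aged, 2.09-fold lower, and 130 and 227 CPM in young, 1.75-fold lower. The lactate exporter gene Slc16a3 had 746 and 1063 CPM in aged and 792 and 952 CPM in young and did not pass, and neither did the regulatory enzyme gene Pfkfb4, with 46.7 and 65.3 CPM and 34.1 and 58.7 CPM.

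**Figure D3:**
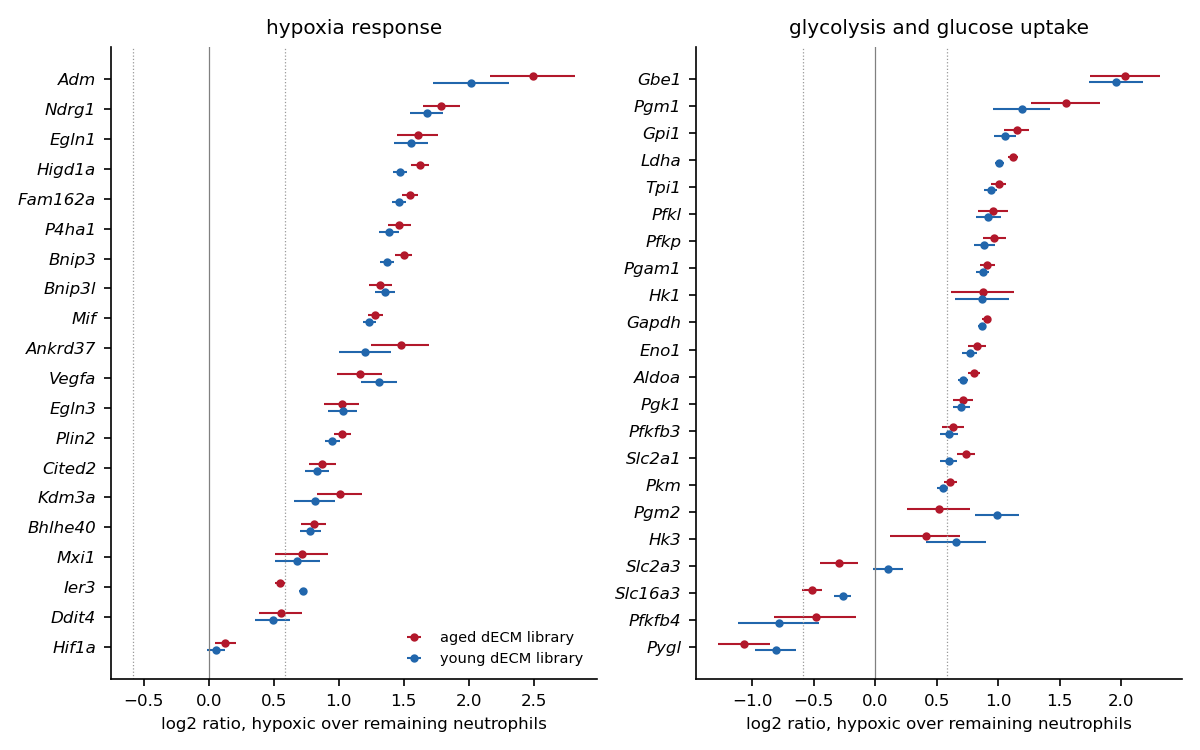
Log2 ratio of hypoxic over remaining neutrophils (x axis) for the 20 measured genes of the hypoxia response list and the 22 of the glycolysis list (y axis), aged in red above young in blue, bars exact 95% counting intervals, dotted lines at 1.5-fold. Adm is the highest hypoxia gene and Hif1a lies near 0 in both libraries, while Gbe1 tops the glycolysis list and Pygl is the lowest.

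Genes of the respiratory chain stayed near the middle of all genes or below it. Of 12 measured nuclear genes only Cycs passed, encoding cytochrome c, with 242 and 100 CPM in hypoxic and remaining aged neutrophils, 2.42-fold, and 219.8 and 100 CPM in young, 2.20-fold. The list's medians were -0.19 and -0.17, and over all measured genes 17.1% were higher and 14.7% lower. The 9 measured genes of the mitochondrial genome had medians of -0.44 and -0.54, and 3 of them were lower. The complex I subunit genes mt-Nd1 and mt-Nd2 were 1.89-fold and 1.84-fold lower in the aged library and 1.98-fold and 1.84-fold lower in the young, and mt-Cytb, of complex III, 1.58-fold and 1.67-fold. Without cells holding 2 or more UMIs of other cell types' markers, the mitochondrial list's median over both libraries came to -0.16.

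Among the genes of immune suppression and checkpoints, the genes of both PD-1 ligands and the nitric oxide synthase gene passed and the other 9 did not. Of 12 measured genes 3 were higher and none lower, against 17.1% and 14.7% of all measured genes, and the list medians, 0.01 and 0.04, were close to those over all genes. Pdcd1lg2 (ENSMUSG00000016498), the gene of PD-L2, had 58.7 and 16.8 CPM in hypoxic and remaining aged neutrophils, 3.49-fold (2.77 to 4.36), and 62.5 and 18.4 CPM in young, 3.39-fold (2.79 to 4.10). At the thinned depth a Pdcd1lg2 UMI was found in 4.90% and 5.94% of hypoxic neutrophils, against 1.79% and 1.71% of the remaining ones, and in fibroblast-like cells in 0.0873% (aged) and in 0 of 733 cells (young, which allows a share of up to 0.409%, taken as 3 counts of the total). Nos2, the inducible nitric oxide synthase, had 166 and 75.4 CPM in aged, 2.21-fold (1.94 to 2.50), and 241 and 96.3 CPM in young, 2.50-fold (2.28 to 2.74). Arg2, the arginase of neutrophil mitochondria, differed little, with 705 and 703 CPM in aged and 699 and 673 CPM in young. Cd47, the signal that restrains phagocytes, had 194 and 250.2 CPM in aged and 195 and 249 CPM in young.

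A few cytokine genes passed. Ccl3, a chemokine for monocytes and neutrophils, had 3792 and 1771 CPM in hypoxic and remaining aged neutrophils, 2.14-fold (2.09 to 2.20), and 3544 and 1638 CPM in young, 2.16-fold (2.11 to 2.21). Il1a was 1.82-fold and 1.93-fold higher and Tnfaip3, a brake on NF-kB signalling, 1.66-fold and 1.63-fold. Il1b, in contrast, had 10982 and 16738 CPM in aged, 1.52-fold lower, and 11223 and 17715 CPM in young, 1.58-fold lower. Of 16 measured genes these 3 were higher and 1 was lower, a share near the 17.1% of all measured genes for the higher ones and below the 14.7% for the lower, and the list medians were 0.24 and 0.29.

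Stress and metal-handling genes that passed were few. In the unfolded protein and integrated stress list, 3 of 9 measured genes were higher and none lower, against 17.1% and 14.7% of all measured genes. The list medians were 0.55 and 0.60. The higher genes were Dnajb9, a chaperone of the endoplasmic reticulum (2.04-fold and 1.93-fold), and the transcription factor genes Atf4 (1.86-fold and 1.94-fold) and Ddit3 (1.64-fold and 1.57-fold). Of 18 measured genes of oxidative stress and iron, 3 were higher, a share near the 17.1% of all measured genes, and 5 lower, against 14.7%, with medians of -0.33 and -0.36. Hmox1, which degrades haem, had 1422 and 588 CPM in aged, 2.42-fold (2.32 to 2.53), and 1532 and 696 CPM in young, 2.20-fold (2.12 to 2.28). Ftl1, the ferritin light chain, was 1.66-fold and 1.60-fold higher, although its reads cannot be told apart from near-identical copies, and the autophagy adaptor gene Sqstm1 was 1.62-fold and 1.51-fold higher. The peroxide-removing enzymes Gpx4 (2.19-fold and 1.92-fold), Gpx1 (1.72-fold and 2.10-fold) and the thioredoxin reductase Txnrd1 (2.12-fold and 1.69-fold) were lower, as were Cybb, the catalytic subunit of the phagocyte oxidase (1.56-fold and 2.13-fold), and the metal transporter gene Slc11a1 (1.83-fold and 1.56-fold). Cybb and Slc11a1 were picked for naming after their values were seen.

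Lipid, survival and vessel genes each had a few members past the minimum. Soat1, which stores cholesterol as esters, had 617 and 266 CPM in hypoxic and remaining aged neutrophils, 2.32-fold, and 556 and 273 CPM in young, 2.04-fold. Plin2, the coat protein of lipid droplets, had 1194 and 586 CPM in aged, 2.04-fold, and 1187 and 615 CPM in young, 1.93-fold. The fatty acid carrier gene Fabp5 was 1.96-fold and 2.07-fold higher. G0s2, like Hilpda an inhibitor of triglyceride breakdown, went the other way, with 6190 and 9507 CPM in aged, 1.54-fold lower, and 5441 and 8622 CPM in young, 1.58-fold lower, and so did the fatty acid transporter gene Slc27a4. Over the 9 measured lipid genes the medians were 0.16 and 0.17, and 3 were higher and 2 lower, against 17.1% and 14.7% of all measured genes. Of 9 survival genes 1 passed, the pore-forming death gene Bax, 2.25-fold higher in each library, with list medians of 0.28 and 0.32. That share was below the 17.1% of all measured genes. Of 11 genes of angiogenesis and matrix, Vegfa and Bsg were higher, a share near the 17.1% of all measured genes. Mmp9, Mmp8 and Fn1 were lower, against 14.7% of all measured genes. Bsg, which encodes the chaperone basigin of the lactate transporters, had 1362 and 430 CPM in aged, 3.17-fold (3.03 to 3.32), and 1388 and 486 CPM in young, 2.85-fold (2.74 to 2.97).

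**Figure D4:**
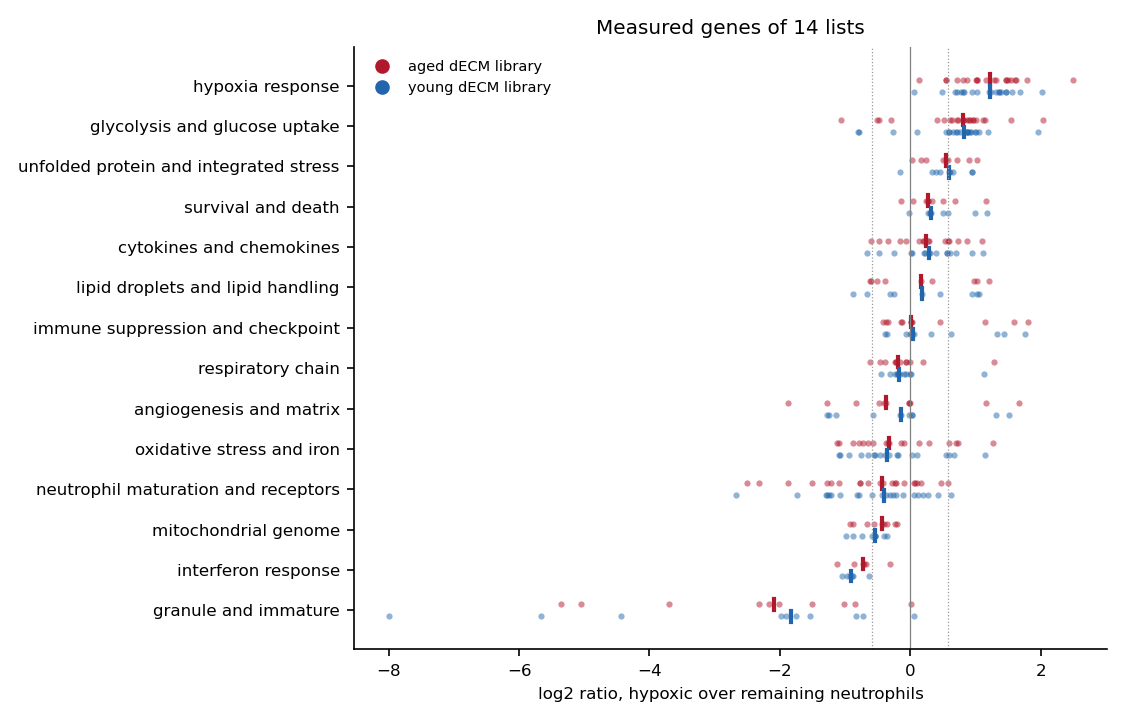
Log2 ratio of hypoxic over remaining neutrophils (x axis) for the measured genes of 14 gene lists (y axis), aged in red above young in blue, with each point a gene, upright bars the list medians and dotted lines the 1.5-fold minimum. Hypoxia response and glycolysis lie to the right, at medians of 1.22 and 0.82, and interferon response and granule genes to the left in both libraries.

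Granule genes were among the lowest in hypoxic neutrophils, but remaining cells close to the threshold had little Ngp or Camp as well. Of 10 measured granule genes 9 were lower, against 14.7% of all measured genes, with list medians of -2.09 and -1.83. Ngp, a marrow-stage granule protein, had 10.8 and 360.5 CPM in hypoxic and remaining aged neutrophils, 33.3-fold lower (21.3 to 55.3), and 7.81 and 397 CPM in young, 50.8-fold lower (32.5 to 84.4). Camp, the antimicrobial peptide cathelicidin, came to 7 UMIs over the aged and 2 over the young hypoxic neutrophils, against 3359 and 4538 UMIs. Ltf, lactoferrin of the secondary granules, came to 12 and 11 UMIs, against 1823 and 2118. These UMIs sat in few cells: the top 1% of remaining neutrophils held between 93.6% and 100% of the UMIs of each of these genes, and 5.49% and 5.40% of remaining neutrophils had a UMI of any of them, against 3.36% and 2.95% of hypoxic ones. Without the remaining cells that had one, 300 genes were higher and 249 lower, 296 and 238 of them the same genes as before. In the remaining step closest to the threshold, Ngp had 15.9 and 19.7 CPM and Camp 1.06 and 2.46 CPM. At the thinned depth a Camp UMI was found in 0.680% of aged and 0.106% of young hypoxic neutrophils, against 0.407% and 0.560% of the remaining ones. For Ltf these shares were 0.680% and 0.318%, against 0.788% and 0.840%, and for Ngp 0.816% and 0.742%, against 2.14% and 1.88%.

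Other genes were also among the 12 lowest, whose direction the choice fixes. UMIs of Anxa1 were found in 3059 aged and 3242 young remaining neutrophils and those of Hp in 4200 and 4045, more cells than for Ngp, Camp or Ltf. Anxa1, annexin A1, had 124 and 619 CPM in aged, 5.01-fold lower (4.38 to 5.75), and 156 and 618 CPM in young, 3.97-fold lower (3.58 to 4.41). Haptoglobin, Hp, had 243 and 1089 CPM in aged and 273 and 923 CPM in young. The interferon-inducible Ifitm6 was 16.0-fold and 13.5-fold lower, with 41.1% and 44.5% of its UMIs in the top 1% of remaining neutrophils. The peptidoglycan-binding Pglyrp1 was 4.03-fold and 3.75-fold lower, and the aldehyde dehydrogenase gene Aldh2 4.97-fold and 4.45-fold. Hacd4, Ccnd3 and Ripor2 completed the 12 lowest genes at 3.49-fold to 4.18-fold lower.

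Some surface receptors of mature neutrophils were lower too. In the list of maturation and receptors, 9 of 22 measured genes were lower and none higher, against 14.7% and 17.1% of all measured genes. The other 13 did not pass, and the list medians were -0.44 and -0.40. Log2 ratios were above 0 in both libraries for 6 of the 13, among them Ccrl2, a receptor that binds chemerin, at 1.49-fold and 1.54-fold, named after its values were seen. Ly6g, the surface protein used to define mouse neutrophils, had 20.5 and 116 CPM in hypoxic and remaining aged neutrophils, 5.66-fold lower (4.07 to 8.10), and 16.8 and 107 CPM in young, 6.35-fold lower (4.67 to 8.88). Cd177, another such surface protein, was 4.97-fold and 3.35-fold lower. Of the Ly6g UMIs of remaining neutrophils, 44.4% and 44.7% lay in the top 1% of cells. The remaining step closest to the threshold had 32.8 and 38.9 CPM of Ly6g. At the thinned depth a Ly6g UMI was found in 1.22% and 1.17% of hypoxic neutrophils, against 4.52% and 4.66% of the remaining ones. Cxcr2, the receptor for neutrophil-attracting chemokines, was named after its values were seen and had 244.5 and 694 CPM in aged, 2.84-fold lower (2.58 to 3.13), and 276 and 642 CPM in young, 2.32-fold lower (2.15 to 2.52). A Cxcr2 UMI was found in 16.6% and 19.9% of hypoxic neutrophils at the thinned depth, against 43.2% and 41.6% of the remaining ones, with fibroblast-like cells at 0.699% and 0.682%. Csf3r, the receptor for G-CSF, did not pass, at 788 and 1055 CPM in aged and 825 and 994 CPM in young.

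Interferon-stimulated genes were lower as well. Of 6 measured genes 5 were lower and none higher, against 14.7% and 17.1% of all measured genes, with medians of -0.72 and -0.91. Irf7, the regulator of type I interferon genes, had 47.3 and 103 CPM in hypoxic and remaining aged neutrophils, 2.18-fold lower, and 43.6 and 90.2 CPM in young, 2.07-fold lower. Isg15, a ubiquitin-like modifier, was 1.66-fold and 1.97-fold lower, and Ifitm3, Slfn4 and Oasl1 were 1.55-fold to 1.86-fold lower over both libraries.

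Outside the lists, the highest genes had varied roles, with several enzymes among them. Nceh1, which hydrolyses cholesterol esters, had 100.3 and 22.9 CPM in hypoxic and remaining aged neutrophils, 4.37-fold (3.66 to 5.21), and 123 and 25.8 CPM in young, 4.78-fold (4.14 to 5.52). F10, coagulation factor X, had 299 and 70.0 CPM in aged, 4.27-fold (3.86 to 4.73), and 334 and 86.6 CPM in young, 3.86-fold (3.55 to 4.19). Rragd, a GTPase that links amino acids to mTORC1, was 4.00-fold and 3.66-fold higher, and Sap30, a subunit of a histone deacetylase complex, 3.87-fold and 3.61-fold. Impa2, an inositol monophosphatase, was 4.17-fold and 3.25-fold higher, and Mrpl45, of the mitochondrial ribosome, 3.26-fold and 3.53-fold. Plcxd2, Ccdc126, Adm, Gbe1 and Pdcd1lg2 were also among the 12 highest genes.

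Markers of other cell types were sparse in the hypoxic set. Fibroblast markers summed to 264 and 129 CPM in aged and young hypoxic neutrophils, against 676 and 301 CPM in the remaining ones and 15907 and 9599 CPM in other mouse cells. All 3 measured fibroblast markers were lower, against 14.7% of all measured genes. Macrophage markers summed to 520 and 533 CPM, against 580 and 666 CPM. Endothelial markers summed to 28.5 and 47.7 CPM, against 18.3 and 20.7 CPM, nearly all of it Pecam1, which myeloid cells also carry, at 26.8 and 44.8 CPM, with Cdh5, Kdr and Emcn at 0.570 to 1.23 CPM. The dendritic cell genes Flt3, Xcr1, Clec9a and Cd209a and the lymphocyte genes Cd79a, Ms4a1 and Cd3e were at 0 in the hypoxic neutrophils of both libraries. With H2-Ab1 and Cd74, the dendritic markers summed to 82.1 and 121 CPM, against 176 and 221 CPM in the remaining neutrophils. With Cd3d, the lymphocyte markers summed to 10.3 and 12.3 CPM, against 19.5 and 18.9 CPM. The remaining sets, which hold more UMIs, had no dendritic marker at 0, so the zeros depend on the size of the set.

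Other neutrophil states met the hypoxic one to different extents. Of hypoxic neutrophils, 14.8% (12.3 to 17.5) in the aged and 12.1% (10.1 to 14.4) in the young library were also in the top 10% of neutrophils by Ddit3 and Osgin1, stress-response genes, against 10.2% (9.57 to 10.9) and 9.05% (8.41 to 9.71) of the remaining ones. For the chemokine gene Cxcl3 the shares were 7.52% (5.73 to 9.65) and 7.89% (6.26 to 9.80), against 11.7% (10.98 to 12.4) and 8.79% (8.17 to 9.45), so that in the young library the intervals overlapped. For the interferon list they were 4.83% (3.41 to 6.63) and 2.21% (1.37 to 3.36), against 11.8% (11.1 to 12.6) and 9.65% (8.997 to 10.3). Shares of UMIs add up within a cell, and the choosing genes took a median of 0.910% in aged and 0.936% in young hypoxic neutrophils. Whether this bore on the overlaps was not tested.

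Between matrix ages, hypoxic neutrophils made up 8.84% of neutrophils (95% exact interval 8.24 to 9.46) in the aged library and 11.2% (10.5 to 11.8) in the young library, a ratio of 0.792. As a share of all mouse barcodes they were 5.48% and 7.54%, and neutrophils as a whole were 62.0% and 67.6%. The intervals do not overlap, but they count cells within 1 library each and say nothing of animals. Among the remaining neutrophils the choosing genes were lower in the aged library too, with Hilpda at 834 and 981 CPM, Hk2 at 174 and 215 CPM, and Ero1l at 739 and 840 CPM. The same genes set the threshold, so these levels are no separate check of the share. Other mouse cells also had less Hilpda (507 and 630 CPM) and Ero1l (232 and 267 CPM) in the aged library, but not less Hk2 (131 and 126 CPM).

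The hypoxic neutrophils of both libraries had much the same profile. Of 1897 genes measured in them, 21 (1.11%) were at least 1.5-fold higher in the aged library and 13 (0.685%) lower, against 6 (0.328%) and 1 (0.0547%) of 1828 in the remaining neutrophils. The hypoxic sets summed 1754361 aged and 2433496 young mouse UMIs, against 20577420 and 21536329 in the remaining sets. At equal CPM their ratios rest on fewer UMIs and more genes can pass by counting alone, so these counts do not compare the sets. TMM scaling turned the split in hypoxic neutrophils to 13 higher and 29 lower, and median-of-ratios scaling to 17 and 28. None of the 20 measured hypoxia genes passed, and 1 of 22 glycolysis genes did, Pgm2, at 82.1 CPM in aged and 133 CPM in young hypoxic neutrophils. Cd274 stood at 655 and 661 CPM, a ratio of 0.991 (0.918 to 1.07), and Vegfa at 184 and 219 CPM, 0.839 (0.728 to 0.965).

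The genes that passed included collagen transcripts. Col1a1 had 62.1 CPM in aged and 23.4 CPM in young hypoxic neutrophils, 2.65-fold (1.91 to 3.72), and 177 and 83.3 CPM in the remaining ones, 2.13-fold (2.01 to 2.25). Col3a1 was 1.96-fold higher in hypoxic and 2.52-fold higher in remaining aged neutrophils. These are genes of fibroblasts, whose summed markers in other mouse cells were 15907 CPM in the aged and 9599 CPM in the young library, and the part of free fibroblast RNA was not tested. Without cells holding at least 2 UMIs of other cell types' markers, 31 genes were higher and 20 lower, of which 8 and 7 were among the first 21 and 13, and the log2 ratio of Col3a1 came to 0.42. That filter counted UMIs of Col1a1, Col1a2 and Col3a1 among the markers, so Col3a1 was measured again in cells that its own UMIs had helped to choose. Of the 21, Col1a1, Col3a1, Col1a2 and Sparc also passed in the remaining neutrophils.

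For some of the other genes, few cells held a large part of the UMIs. Rsad2, an interferon-induced antiviral enzyme, had 131 CPM in aged and 58.8 CPM in young hypoxic neutrophils, 2.23-fold (1.80 to 2.77). Of its aged UMIs, 26.5% lay in 1 cell and 71.7% in 7 cells, and of its young UMIs 14.7% lay in 1 cell and 53.1% in 10 cells. The log2 ratio of Rsad2 came to 0.04 without Ero1l in the choice of cells. Cd74, the invariant chain of class II antigen presentation, had 28.5 and 57.1 CPM, 2.00-fold lower, with 72.7% of the young UMIs in 1 cell, and its direction changed under 7 other settings. Xist, the RNA that silences an X chromosome, had 111 CPM in aged and 236 CPM in young hypoxic neutrophils, 2.13-fold lower (1.80 to 2.51), and 68.8 and 134 CPM in the remaining ones, 1.95-fold lower (1.83 to 2.08). It was thus lower in the aged library in both sets, with at most 5.64% of its UMIs in 1 hypoxic neutrophil. Other mouse cells also had less Xist in the aged library, at 140 CPM against 310 CPM in the young. Usp25, a deubiquitinase gene, was 1.83-fold higher in hypoxic neutrophils and 1.03-fold in the remaining ones, and Gsr, glutathione reductase, 1.70-fold lower and 1.03-fold lower. The difference between the sets was not tested for any of these genes. E530011L22Rik and Msl2 were higher and Swt1, 1600014C10Rik and Tmem140 lower among the 6 genes at each end, at 1.67-fold to 1.95-fold. Over 240 values of these 12 genes under other settings, 26 kept their direction but came below 1.5-fold, all of them values of Rsad2, Col3a1, Usp25, Gsr, Msl2, Swt1, Tmem140 or 1600014C10Rik, and the 7 of Cd74 changed direction.

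**Figure D5:**
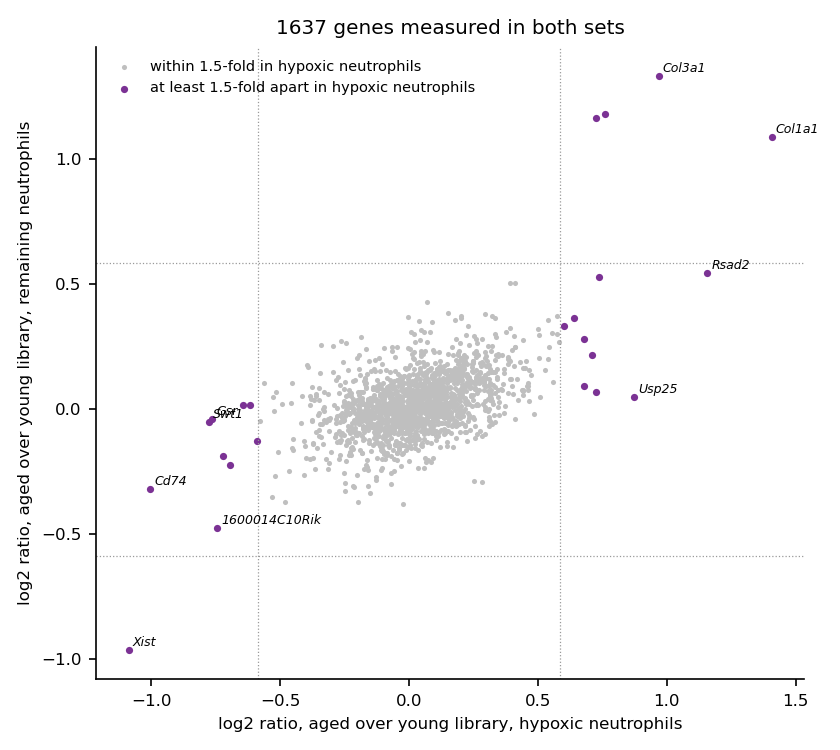
Log2 ratio of the aged over the young library in hypoxic neutrophils (x axis) and in remaining neutrophils (y axis) for 1637 genes measured in both sets, with dotted lines at 1.5-fold and purple points for the 23 of them that passed in hypoxic neutrophils. Most genes lie around 0, collagen genes are high and Xist low on both axes, and Usp25, Swt1 and Gsr depart from 0 on the x axis only.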

How the data were processed

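Droplet 3' libraries (10x Genomics) were analysed from the deposited counts of UMIs per gene and barcode, which per the submitters' processing notes were made by the authors with Cell Ranger 6.0.0 against human GRCh38 and mouse mm10. Nothing had been scaled. Members and gene lists were chosen with earlier results of these data known, so no count supports a choice. Mouse rows sharing a symbol (78 rows, 38 symbols) were summed. UMIs were summed over each set of cells per library and scaled to CPM of mouse gene UMIs. A gene passed at 1.5-fold or more in the same direction in both libraries, and between libraries at 1.5-fold. Ratios carry exact conditional 95% intervals and shares exact binomial ones. Named genes are the 12 highest and 12 lowest, 6 at each end between libraries, up to 3 at each end of a list, the markers, and 7 set by role. One of the 12 highest is not reported here. Scrublet scores (scanpy 1.11.5, expected rate 0.1) served as an alternative, as did TMM (edgeR 4.0.16) and median-of-ratios (DESeq2 1.42.0) scaling, without either tool's test. The contrast was also run on simulated Poisson sums with known folds. These had no spread between cells and no choice of members by expression, so they check the calculation only.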

Additional observations from a re-analysis of the deposited data

How the results depend on the processing

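No paired analysis was possible because each matrix age had 1 gene expression library. The aged over young ratio of the hypoxic share (0.792) was 0.707 at 98% mouse UMIs and 0.881 without Hilpda in the choice. It is 1 by construction when the top 10% is taken within each library. Genes higher and lower in hypoxic neutrophils (332 and 286) became 615 and 1143 with no CPM minimum and 129 and 88 at 200 CPM, and the lower list genes (36) 61 and 20. Aged over young in hypoxic neutrophils, 21 higher and 13 lower genes became 35 and 32 with the top 5%, 5 and 1 with the top 20%, 32 and 25 at 2000 mouse UMIs, 41 and 41 at 98% mouse UMIs, 14 and 6 with thinning before the choice, 13 and 29 with TMM, 41 and 42 with no CPM minimum, and 2 and 2 at 200 CPM. The lower count became 8 without Hilpda, 28 with median of ratios, 23 without S100a8 and S100a9 in the total, and 20 without cells holding other types' markers. In the remaining neutrophils, 6 higher and 1 lower became 17 and 5 at 98% mouse UMIs, 230 and 52 with no CPM minimum, and 1 and 0 at 200 CPM, and the higher count 10 at 2000 mouse UMIs, 1 at 10% S100 and 2 without cells holding other types' markers. Cd74 turned to log2 ratios of 0.72 (top 5%), 0.16 (10% S100), 0.91 (no doublet scores over 0.25), 0.70 (no Hilpda), 2.20 (thinned), 0.13 (every cell equal) and 0.99 (no other types' markers). The cause was not tested. Named ratios of hypoxic over remaining neutrophils kept direction and side in 757 of 766 alternatives and reversed in 0. The settings on other types' markers, shared barcodes and Camp, Ngp or Ltf cells were added after seeing the data. Sparse genes, 1 library per age and shallow cells limit precision.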
